A study of Mus musculus with 4 samples.

Results

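Genes for 9 enzymes through which myeloid cells change the amino acids, lipids and heme of a tumor were followed through the CD45+ cells of mouse mammary tumors: *Arg1*, *Nos2*, *Acod1*, *Ido1*, *Il4i1*, *Kmo*, *Ptgs2*, *Ptges* and *Hmox1*. They were chosen by name, as 9 of the 32285 genes counted, and none of them was used to sort the cells into types. Their unique molecular identifiers (UMIs, each standing for 1 captured RNA molecule) were summed per tumor over the cells of each type and are given per 10000 UMIs of those cells. Levels of *Acod1* and *Ptgs2* were highest in neutrophils, those of *Hmox1* and *Arg1* in the macrophages that carry *Mmp12* and *Gpnmb*, *Nos2* in these macrophages and in neutrophils, whose ranges overlapped, *Il4i1* and *Ido1* in mature dendritic cells, *Kmo* in plasmacytoid and *Cd209a* dendritic cells, and *Ptges* in the few sorted cells with keratin or stromal markers.

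EO771 cells, a mouse mammary carcinoma line, were implanted into the mammary fat pads of female C57BL/6 mice of the genotypes *Csf1r* fl/fl and, with Cre, *Lyve1*Cre *Csf1r* fl/fl. Both genotypes carried the floxed alleles of *Csf1r*, the receptor for macrophage colony-stimulating factor, and only the latter carried Cre under *Lyve1*. The *Lyve1* gene is also active in lymphatic endothelium, so Cre is not limited to macrophages in this model. Tumors were taken at a set volume. For each genotype 2 tumors were dissociated, and their cells were stained with hashtag antibodies and sorted for living CD45+ cells. These were loaded in 2 Chromium runs, each holding 1 tumor of either genotype. Each cell's tumor and genotype were read from its hashtag, as the deposited hashtag table names it. In what follows, *Lyve1*Cre is short for *Lyve1*Cre *Csf1r* fl/fl, and the values of a genotype are given with the tumor of run 1 before that of run 2.

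These enzymes act on small molecules that T cells need or sense. Arginase 1 (*Arg1*) cleaves arginine to ornithine and urea, and the inducible nitric oxide synthase (*Nos2*) turns the same arginine into nitric oxide and citrulline. *Acod1* makes itaconate from cis-aconitate of the citric acid cycle. *Ido1* opens the tryptophan ring on the way to kynurenine, *Kmo* hydroxylates kynurenine, and *Il4i1* is a secreted oxidase of phenylalanine and tryptophan. *Ptgs2* (the inducible cyclooxygenase) and *Ptges* act in sequence from arachidonic acid to prostaglandin E, and *Hmox1* breaks heme into biliverdin, carbon monoxide and iron.

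The genes are spread over the genome, here in mm10 with GENCODE annotation, and all 9 code for protein. *Acod1* lies at chr14:103046977-103056573 on the plus strand, *Ptgs2* at chr1:150100031-150108227 on the plus strand, *Arg1* at chr10:24915221-24927484 on the minus strand and *Nos2* at chr11:78920787-78960254 on the plus strand. Since the levels of *Acod1* and *Ptgs2* moved together across cell types and tumors, the promoters of both are shown, from 250 bases before to 50 bases after the transcription start, 5′ to 3′, taken from RefSeq for GRCm38.p6. The window is chr1:150099781-150100080 for *Ptgs2* and chr14:103046762-103047061 for *Acod1*, both on the plus strand, and capitals mark the motif matches given below.
Ptgs2: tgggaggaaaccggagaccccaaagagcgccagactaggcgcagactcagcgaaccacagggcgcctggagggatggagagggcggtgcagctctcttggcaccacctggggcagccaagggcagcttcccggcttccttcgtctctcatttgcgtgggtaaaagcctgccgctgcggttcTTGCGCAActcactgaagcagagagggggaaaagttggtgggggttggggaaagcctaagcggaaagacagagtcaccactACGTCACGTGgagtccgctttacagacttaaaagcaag
Acod1: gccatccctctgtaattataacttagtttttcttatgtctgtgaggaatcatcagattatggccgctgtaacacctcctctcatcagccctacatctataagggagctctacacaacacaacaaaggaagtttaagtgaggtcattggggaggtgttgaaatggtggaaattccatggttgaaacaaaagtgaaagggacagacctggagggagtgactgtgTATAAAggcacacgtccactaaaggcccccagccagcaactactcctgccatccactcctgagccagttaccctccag
Motifs were searched as plain letters on both strands, in the 5 of 9 members with an entry (*Ptgs2*, *Acod1*, *Kmo*, *Ptges* and *Il4i1*) and in all 32851 promoters of the table. The *Ptgs2* promoter held a C/EBP motif, TTGCNNAA, from −69 to −62 relative to the start, which 10.8% of all promoters hold. It also held an E-box, CACGTG, at 17 to 22, found in 7.15% of promoters. The E-box overlapped the core of a cyclic AMP response element, TGACGT, at 13 to 18 on the minus strand, found in 7.51%. The *Acod1* promoter held a TATA box, TATAAA, at −28 to −23, found in 13.6%. Neither window held the NF-kB motif, found in 1.63% of promoters, or the antioxidant response element TGACNNNGC, found in 12.4%. The windows of *Kmo*, *Ptges* and *Il4i1* held none of the 6 motifs.

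The 28429 cells analysed were 53.3% of the 53361 barcodes counted, with 4771 to 8699 cells and 27686362 to 56715743 UMIs per tumor. A cell went to a gate, that is a cell type called from a fixed list of lineage markers, when its mean standardized marker level was high enough and led that of every other type by a set margin; 24.2% of cells fell short of these limits and stayed ungated. In all 12 gates every marker of the gate's own list had UMIs. The cells were gated on those markers, so this does not test the gates. In the Mmp12 Gpnmb macrophage gate the 7 neutrophil markers summed to 157 UMIs per 10000, against 43.9 for the gate's own 5. In the median cell of that gate the values were 10.2 and 27.5. The neutrophil markers also summed to more than the gate's own list in C1q macrophages (96.2 against 70.4) and B cells (123 against 10.3). The same held for *Cd209a*, type 1 and plasmacytoid dendritic cells and NK cells. In the median cell of each of these gates the own list was higher. The 2 runs shared 60 cell barcodes, 0.478% of the smaller run. Scrublet marked 32.9% of the C1q macrophage gate and 27.3% of the Mmp12 Gpnmb macrophage gate as possible doublets, against 11% of the neutrophil gate. The floxed gene itself gave 0.898 and 0.964 *Csf1r* UMIs per 10000 over all kept cells in *Csf1r* fl/fl tumors, against 0.427 and 0.454 in *Lyve1*Cre tumors. Reads of this kit come from the 3′ end of the transcript, so they do not test whether the floxed part was removed. *Lyve1* had 43 and 20 UMIs in *Csf1r* fl/fl tumors (0.00758 and 0.00491 per 10000), against 42 and 42 in *Lyve1*Cre tumors (0.0117 and 0.0152). In the monocyte and both macrophage gates it had 0 UMIs in *Lyve1*Cre tumors, and at most 2 in a gate of a *Csf1r* fl/fl tumor.

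**Figure D1:**
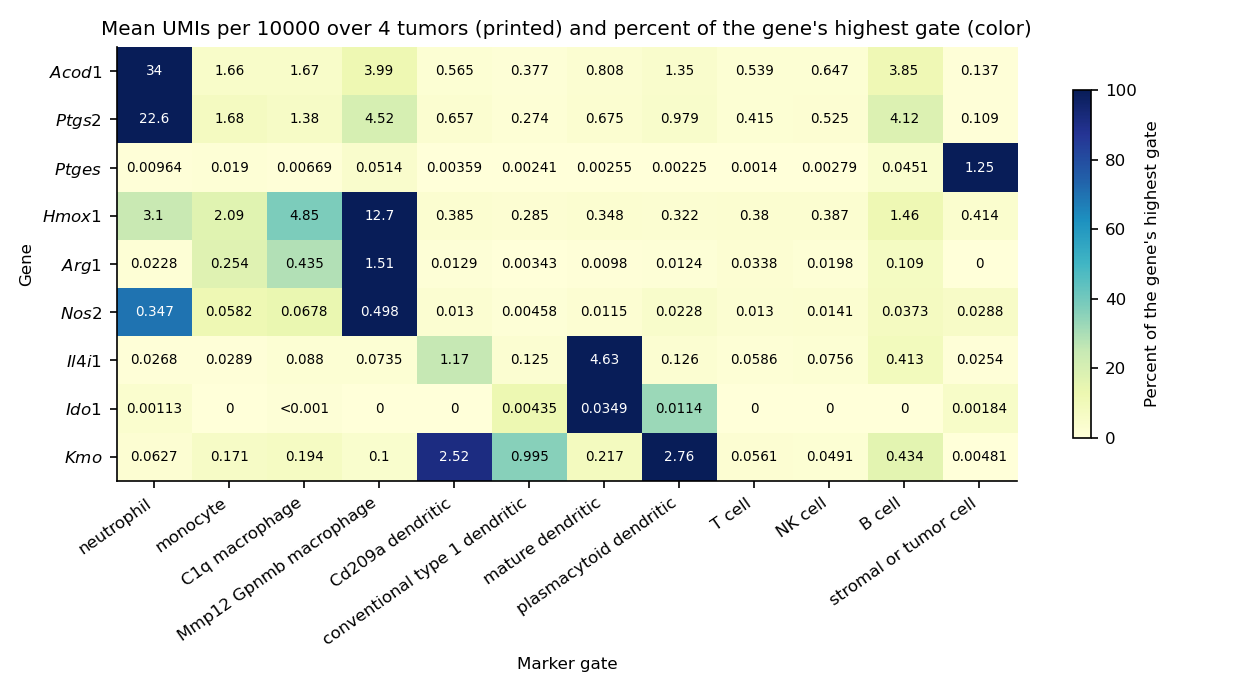
Mean level over 4 tumors of each gene (rows) in each of 12 marker gates (columns), printed in UMIs per 10000; color gives the percent of that gene's highest gate, from 0 to 100. The highest means were 34.0 for Acod1 and 22.6 for Ptgs2 in the neutrophil gate, 12.7 for Hmox1, 1.51 for Arg1 and 0.498 for Nos2 in the Mmp12 Gpnmb macrophage gate, 4.63 for Il4i1 and 0.0349 for Ido1 in the mature dendritic gate, 2.76 for Kmo in the plasmacytoid dendritic gate and 1.25 for Ptges in the stromal or tumor cell gate.

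Neutrophils, gated by *S100a8*, *S100a9*, *Csf3r*, *Cxcr2*, *Retnlg*, *Mmp9* and *Hdc* (4782 cells), held 63.9% of all *Acod1* UMIs and 57.5% of all *Ptgs2* UMIs while making up 16.8% of the cells. The itaconate enzyme *Acod1* reached 19.2 and 49.9 UMIs per 10000 in *Csf1r* fl/fl tumors, against 28.9 and 38.0 in *Lyve1*Cre tumors. The lowest and the highest value both came from *Csf1r* fl/fl tumors, so the genotypes overlapped. The mean of 34.0 ± 13.1 (SD, n = 4 tumors) was 8.51 times that of the next gate, the Mmp12 Gpnmb macrophages at 3.99, and the ranges of these 2 gates over the tumors did not overlap. Below neutrophils, every neighboring pair of gates in the order of means overlapped in range, from Mmp12 Gpnmb macrophages through B cells (3.85), C1q macrophages (1.67) and monocytes (1.66) down to stromal or tumor cells (0.137). Of the 316 B cells, 246 came from the run 2 *Lyve1*Cre tumor and Scrublet marked 39.9%.

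The inducible cyclooxygenase *Ptgs2* was also highest in neutrophils. Its neutrophil level was 11.9 and 30.8 UMIs per 10000 in *Csf1r* fl/fl tumors, against 20.5 and 27.2 in *Lyve1*Cre tumors, with overlapping genotypes and the same *Csf1r* fl/fl tumor of run 1 lowest. The mean of 22.6 ± 8.33 stood apart from the 4.52 of the Mmp12 Gpnmb macrophages, and all lower neighbors overlapped. Over the 46 sums of a gate in a tumor with at least 20 cells, *Acod1* and *Ptgs2* had a Pearson r of 0.979 on the log2(CPM + 1) scale, the highest of either gene among the genes with at least 500 UMIs. Next for *Acod1* were *Hdc* (0.974, itself a neutrophil marker of the gate) and *Hcar2* (0.968), and next for *Ptgs2* were *Hcar2* (0.974) and *Cd14* (0.970). These sums share libraries, tumors and a few gates that dominate the range, so the values describe likeness and carry no test.

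Most neutrophils had both RNAs. After each cell was thinned to 1500 UMIs, *Acod1* was found in 79.0% and 92.4% of *Csf1r* fl/fl neutrophils and in 89.7% and 84.5% of *Lyve1*Cre neutrophils, against 3.95% of T cells over all tumors, which should lack it. Without thinning the neutrophil shares were 87.9%, 92.0%, 92.5% and 88.0%, and that of T cells 8.05%, at median depths of 2125.5 and 4165 UMIs per cell. The thinning left out 1024 of the 4782 neutrophils as too shallow. Of thinned neutrophils with an *Acod1* UMI, 69.0% and 84.1% had one of *Ptgs2* in *Csf1r* fl/fl tumors, against 81.3% and 81.9% in *Lyve1*Cre tumors. Of those without *Acod1*, the shares were 45.9%, 59.5%, 55.7% and 55.7%. The share with *Ptgs2* was thus higher beside *Acod1* in each of the 4 tumors.

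In clusters built without the 9 genes, 3 clusters were led by the neutrophil gate, which held 93.1% of cluster 11 (2745 cells), 64.7% of cluster 12 (2698 cells) and 30.4% of cluster 13 (1144 cells). Their mean *Acod1* levels were 35.6, 39.3 and 10.2 UMIs per 10000 and their *Ptgs2* levels 22.4, 30.1 and 7.06. *Hmox1* was 1.86, 6.32 and 3.99 there, and *Nos2* 0.247, 0.678 and 0.177. The Mmp12 Gpnmb gate, high in both of these, made up 0.219%, 4.04% and 3.93% of the 3 clusters, and its part in these levels was not tested. Cluster 15 (462 cells), led by the T cell gate with 23.4% of its cells in the neutrophil gate, had 14.2 of *Acod1* and 7.95 of *Ptgs2*, and it stayed in the other gates where neutrophil-led clusters were taken out. Cluster 12 held less *S100a8* than cluster 11 (416 against 836) and more *Bnip3*, a hypoxia-inducible mitochondrial gene (4.72 against 1.04). These are descriptions of clusters, without a test.

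**Figure D2:**
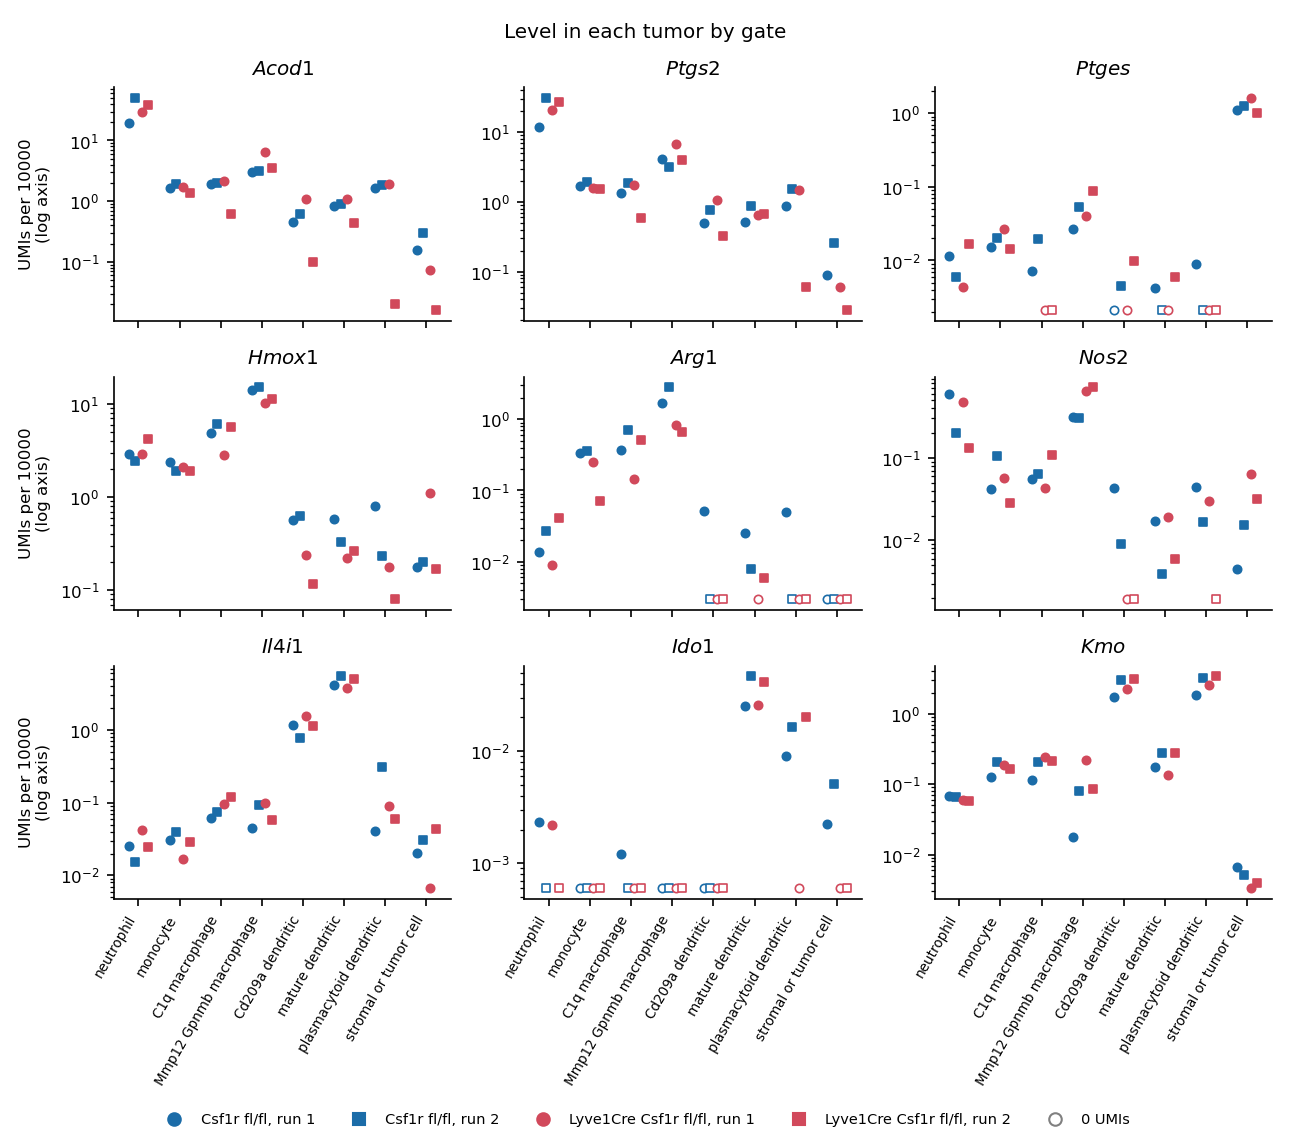
Level of each gene in each tumor for 8 gates, in UMIs per 10000 on a log axis; blue is Csf1r fl/fl, red Lyve1Cre Csf1r fl/fl, circles run 1, squares run 2, and open symbols at the bottom are tumors with 0 UMIs. The 4 neutrophil values of Acod1 (19.2 to 49.9) and Ptgs2 (11.9 to 30.8) lie above those of every other gate drawn, and Kmo in plasmacytoid and Cd209a dendritic cells is higher in run 2 than in run 1 in both genotypes.

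Because neutrophils carried so much of these RNAs, levels in other gates were set beside the amount of neutrophil RNA found there. The defining neutrophil RNAs *S100a8* and *S100a9* together gave 1422 UMIs per 10000 in the neutrophil gate (1288 to 1630 over the tumors). In the Mmp12 Gpnmb macrophage gate they gave 148 (105 to 239), a mean of 10.4% of the neutrophil level, and all 7 neutrophil markers had UMIs there (123 to 256 per 10000 in sum). If a gate held *Acod1* in the same ratio to these RNAs as neutrophils of the same tumor, the Mmp12 Gpnmb gate would have had a mean of 3.45 *Acod1* UMIs per 10000, and it had 3.99. For *Ptgs2* the values were 2.31 and 4.52, for *Nos2* 0.0389 and 0.498, and for *Hmox1* 0.317 and 12.7. In C1q macrophages the *Acod1* values were 1.49 in that ratio and 1.67 measured, and in mature dendritic cells 0.829 and 0.808. B cells, which held the most *S100a8* and *S100a9* of the other gates (mean 11.6% of the neutrophil level, up to 28.6%), had 3.39 in that ratio and 3.85 measured. Monocytes had 0.886 in that ratio and 1.66 measured. *Acod1* was above the ratio in 3 of 4 tumors in both macrophage gates and in 2 of 4 in mature dendritic cells. In monocytes it was above in 4 of 4 tumors, as it also was in T cells (0.539 measured, 0.321 in that ratio) and NK cells (0.647 and 0.509). T cells were also above it in 4 of 4 for *Nos2* (0.0130 and 0.00503) and *Hmox1* (0.380 and 0.0329), as were the Mmp12 Gpnmb macrophages, at far higher levels.

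**Figure D3:**
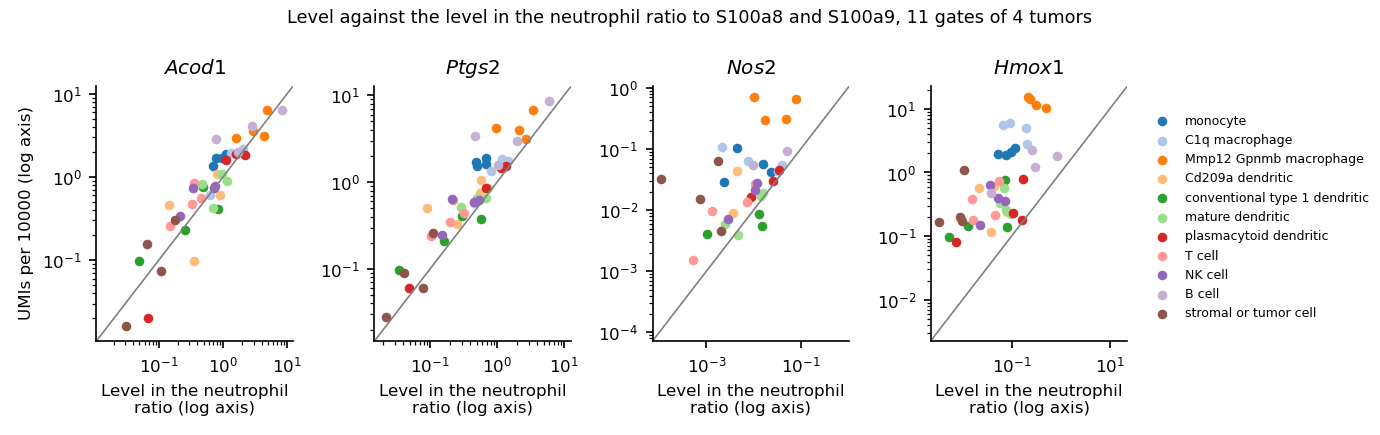
Measured level (vertical, UMIs per 10000, log axis) against the level each gate would have in the ratio to S100a8 and S100a9 of the neutrophils of its tumor (horizontal, log axis), for 11 gates in 4 tumors; the line marks equality and sums with 0 UMIs of the gene are not drawn. Acod1 in the Mmp12 Gpnmb macrophage gate (mean 3.99 against 3.45) lies near the line, whereas the Mmp12 Gpnmb macrophage points of Nos2 (mean 0.498 against 0.0389) and Hmox1 (12.7 against 0.317) lie above it.

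To ask which gates differed beyond the spread left once differences between tumors were taken out, 6 myeloid gates of the 4 tumors were fitted together. The tumor was a block (edgeR's quasi-likelihood test, Benjamini-Hochberg adjustment over 10602 genes, threshold 0.05), and 5 gates were compared with monocytes. Of the 9 members 7 were tested, and *Ido1* and *Ptges* were too low in these gates. In neutrophils 4 members were higher, where 32.2% of all genes tested were called higher, and 1 was lower, where 29.7% were called lower. The 4 were *Acod1* (log2 fold change 5.35 ± 0.33 SE, adjusted p = 1.52e-14), *Ptgs2* (4.69 ± 0.28), *Nos2* (3.42 ± 0.34) and *Hmox1* (1.53 ± 0.23). *Arg1* was lower, by a log2 fold change of −2.92 ± 0.49. The fit left out gate markers and scaled the sums by edgeR's TMM method, so these fold changes need not equal ratios of the levels. By mean level *Hmox1* was 1.49 times as high in neutrophils as in monocytes (3.10 against 2.09), a smaller difference than its log2 fold change gives. How far the neutrophil calls and medians depend on this scaling was not tested. Leaving out the cells that Scrublet marked gave 6.68 for *Acod1* and 5.72 for *Ptgs2*. The median over the 7 members was 1.53, beside −0.04 over all genes tested.

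The macrophage gates were each compared with monocytes and not with each other. In Mmp12 Gpnmb macrophages 5 members were higher, with 13.5% of all genes called higher, and *Kmo* was lower, with 17.1% called lower. The 5 were *Nos2* (2.71 ± 0.42), *Hmox1* (2.50 ± 0.23), *Arg1* (2.43 ± 0.29), *Ptgs2* (1.31 ± 0.26) and *Acod1* (1.11 ± 0.30). With the cells of the neutrophil-led clusters taken out of the other gates, *Acod1* was at −0.03 (adjusted p = 0.953) and *Ptgs2* at 0.64 (adjusted p = 0.0284), while *Nos2* (2.97), *Hmox1* (2.51) and *Arg1* (2.53) still passed; this alternative was chosen after seeing the data. DESeq2 also called *Il4i1* higher in these macrophages (1.24, adjusted p = 0.0268). That call, not made by edgeR, rested on 19 UMIs in the gate, and the edgeR direction turned without the Scrublet cells. The call of *Kmo* (−1.08 ± 0.36) was lost without the cells of neutrophil-led clusters (−0.97, adjusted p = 0.0506), without the Scrublet cells (−0.81), without either *Csf1r* fl/fl tumor (−0.59 and −0.88) and without the run 2 *Lyve1*Cre tumor (−1.05). In C1q macrophages 2 members were higher, beside 15.1% of all genes, and none was lower, beside 18.3%. They were *Hmox1* (1.03 ± 0.22) and *Il4i1* (1.15 ± 0.34), of which *Il4i1* was at 0.34 (adjusted p = 0.613) without the Scrublet cells and at 1.05 (adjusted p = 0.0550) without the run 2 *Lyve1*Cre tumor.

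**Figure D4:**
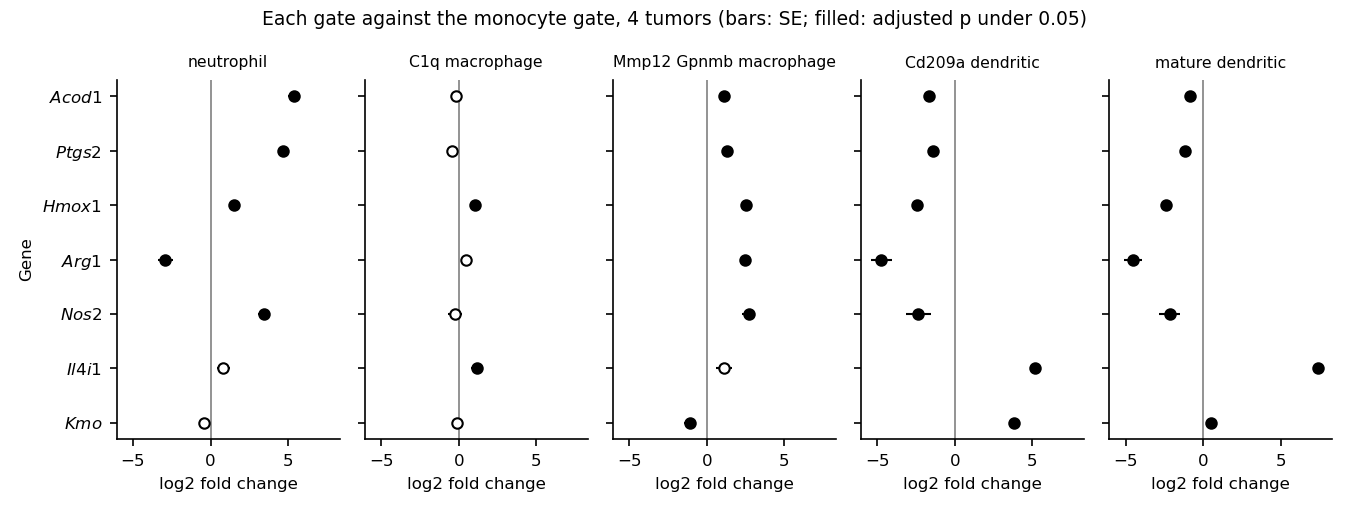
Log2 fold change of 7 genes in 5 gates against the monocyte gate, from 1 edgeR fit over 4 tumors. Bars are standard errors computed from the fold change and the F statistic of the test. Filled points have an adjusted p under 0.05, and open points do not. Acod1 (5.35) and Ptgs2 (4.69) stand out in neutrophils, Nos2 (2.71), Hmox1 (2.50) and Arg1 (2.43) in Mmp12 Gpnmb macrophages, and Il4i1 in Cd209a (5.16) and mature dendritic cells (7.43).

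*Hmox1*, which frees iron from heme, was highest in the Mmp12 Gpnmb macrophages (455 cells), at 14 and 15.2 UMIs per 10000 in *Csf1r* fl/fl tumors, against 10.2 and 11.4 in *Lyve1*Cre tumors. Both *Lyve1*Cre values lay below both *Csf1r* fl/fl values. The mean of 12.7 ± 2.31 did not overlap that of C1q macrophages (4.85), which overlapped neutrophils (3.10), and neutrophils in turn lay above monocytes (2.09) without overlap. The genes closest to it across the 46 sums were *Plin2*, a lipid droplet coat gene (r = 0.928), *Cd93* (0.918) and *Cstb* (0.915).

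*Arg1*, the arginine-cleaving enzyme, was highest in the same macrophages. The Mmp12 Gpnmb macrophages had 1.70 and 2.83 UMIs per 10000 in *Csf1r* fl/fl tumors, against 0.833 and 0.662 in *Lyve1*Cre tumors. Again the genotypes did not overlap. C1q macrophages had 0.373, 0.701, 0.147 and 0.518, monocytes 0.335, 0.357, 0.253 and 0.0709, and neutrophils at most 0.0412 in any tumor. Each neighboring pair of gates in the order of means overlapped in range. Within each of the 4 tumors, however, Mmp12 Gpnmb macrophages lay above C1q macrophages.

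The RNA of *Arg1* was concentrated in few cells. Its 2142 UMIs came from 325 cells, 1.14% of all kept cells, and 63 cells with 10 or more UMIs held 71.5% of them, the highest having 98. Of the 63 cells, 27 and 26 were from the *Csf1r* fl/fl tumors and 6 and 4 from the *Lyve1*Cre tumors, and Scrublet marked 31.7% of the 63. C1q macrophages held 29.0% of the UMIs, Mmp12 Gpnmb macrophages 21.9%, monocytes 19.9% and ungated cells 19.6%. A value of *Arg1* in a tumor therefore rested on few cells, for example 4 cells with a UMI in the Mmp12 Gpnmb gate of the run 2 *Lyve1*Cre tumor. The genes closest to it were *Tnfsf13os* (r = 0.898), *Abcc5* (0.886) and *Cndp2* (0.881).

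*Nos2*, which competes for the same arginine, was highest in Mmp12 Gpnmb macrophages by the mean over both genotypes, and in neutrophils by the mean of *Csf1r* fl/fl tumors (0.393 against 0.308). The macrophages had 0.313 and 0.304 UMIs per 10000 in *Csf1r* fl/fl tumors, against 0.654 and 0.720 in *Lyve1*Cre tumors, without overlap between genotypes. The neutrophils had 0.587 and 0.199 in *Csf1r* fl/fl tumors, against 0.469 and 0.132 in *Lyve1*Cre tumors, so that run 1 was above run 2 in both genotypes. The 2 gates overlapped with each other and lay above C1q macrophages (0.0678) and monocytes (0.0582), and neutrophils held 42.6% of all *Nos2* UMIs. Closest to *Nos2* were *Bnip3* (r = 0.903), *Hilpda*, a hypoxia-inducible lipid droplet gene (0.902), and *Ninj1* (0.897).

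The enzymes of tryptophan were highest in dendritic cells. *Il4i1* was highest in mature dendritic cells, gated by *Ccr7*, *Fscn1*, *Ccl22*, *Cacnb3*, *Nudt17* and *Apol7c* (1703 cells), at 4.23 and 5.52 UMIs per 10000 in *Csf1r* fl/fl tumors, against 3.81 and 4.96 in *Lyve1*Cre tumors. The *Cd209a* dendritic cells had 1.19, 0.782, 1.56 and 1.14. Of those 756 cells 171 had an *Il4i1* UMI, and the 76 with most held 77.3% of the UMIs. Cluster 10, led by that gate, had a mean of 0.439. Mature dendritic cells lay above *Cd209a* dendritic cells in all 4 tumors without overlap, the *Cd209a* dendritic cells lay in turn above all lower gates, and the genotypes overlapped in both gates. Closest to *Il4i1* were *Socs2* (r = 0.918), *Capsl* (0.900) and *Ramp3* (0.898).

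*Kmo* was highest in other dendritic cells. Plasmacytoid dendritic cells had 1.85 and 3.18 UMIs per 10000 in *Csf1r* fl/fl tumors, against 2.56 and 3.43 in *Lyve1*Cre tumors, and *Cd209a* dendritic cells 1.74, 2.99, 2.28 and 3.08. In both gates run 2 was above run 1 in each genotype, and the same held for conventional type 1 dendritic cells at 0.650, 1.17, 0.808 and 1.35. The 2 highest gates overlapped and both lay above the others. Within each of the 4 tumors plasmacytoid dendritic cells were the higher of the 2. *Kynu*, which acts on the product of *Kmo*, was among its 3 closest genes (r = 0.890), after *Bcl11a* (0.898) and *Rnase6* (0.897).

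*Ido1* was barely seen. Of its 49 UMIs in kept cells, mature dendritic cells held 33, as 6 and 12 in *Csf1r* fl/fl tumors, against 8 and 7 in *Lyve1*Cre tumors. Their level of 0.0254 to 0.0467 UMIs per 10000 did not overlap that of plasmacytoid dendritic cells, the next gate at 0.0114. Monocytes had 0 UMIs in every tumor, which allows a level of up to 0.00602 to 0.0106 per 10000 at 3 counts, and none were seen in Mmp12 Gpnmb macrophages, *Cd209a* dendritic cells, T cells, NK cells or B cells. Differences between tumors were not detectable at this depth.

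Against monocytes, *Cd209a* dendritic cells had 2 members higher, with 20% of all genes called higher, and 5 lower, with 20.7% called lower. The 2 were *Il4i1* (5.16 ± 0.24) and *Kmo* (3.82 ± 0.17). Mature dendritic cells likewise had 2 higher beside 31.8% and 5 lower beside 29.7%, the 2 being *Il4i1* (7.43 ± 0.23, a 172-fold difference) and *Kmo* (0.52 ± 0.20). The *Kmo* call in mature dendritic cells was lost with DESeq2 (0.56, adjusted p = 0.0579) and without either *Csf1r* fl/fl tumor (0.47 and 0.44) or the run 2 *Lyve1*Cre tumor (0.37). The 5 lower members in both gates were *Arg1*, *Nos2*, *Acod1*, *Ptgs2* and *Hmox1*. Of these, *Hmox1* was at −2.44 and −2.39. *Nos2* lost its call in *Cd209a* cells without the run 2 *Csf1r* fl/fl tumor (−1.62) or the run 1 *Lyve1*Cre tumor (−1.99), and in mature dendritic cells without the run 2 *Csf1r* fl/fl tumor (−1.28). *Acod1* in mature dendritic cells lost its call with DESeq2 (−0.90, adjusted p = 0.0655) and moved from −0.87 to 0.09 without the cells of neutrophil-led clusters.

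*Ptges*, the last enzyme on the way to prostaglandin E, was highest outside the leukocyte gates. The stromal or tumor cell gate (239 cells, gated by *Krt8*, *Krt18*, *Epcam*, *Col1a1*, *Col3a1* and *Sparc*) had 1.1 and 1.26 UMIs per 10000 in *Csf1r* fl/fl tumors, against 1.60 and 1.02 in *Lyve1*Cre tumors and held 91.3% of all *Ptges* UMIs. The next gate, Mmp12 Gpnmb macrophages, had 0.0514, 24.2 times less, and the highest tumor of that gate did not reach the lowest of the other. Genotypes overlapped. Scrublet marked 43.9% of these 239 cells, and whether they are doublets or cells without CD45 was not tested. They remained after a sort for CD45 and do not represent the tumor's epithelium or stroma. The nearest genes were *Ntn1* (r = 0.938), *Cav1* (0.934) and *Cavin3* (0.933).

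A further 76 genes of the same pathways were counted by role, 56 of them tested against monocytes. In neutrophils, where 32.2% of all genes were higher and 29.7% lower, the itaconate and NRF2 list had 8 of 11 tested genes higher and 2 lower (median log2 fold change 1.68, beside −0.04 over all genes), led by *Slc7a11*, the cystine importer (4.66 ± 0.24), and *Nfkbiz* (4.09 ± 0.20). The heme and iron list had 7 of 11 higher and 2 lower (median 0.46), led by *Slc40a1*, the iron exporter ferroportin (5.09 ± 0.28), and *Fth1*, ferritin heavy chain (2.68 ± 0.12). The arginine and polyamine list had 4 of 12 higher and 4 lower, near the shares of all genes. The mitochondrial arginase *Arg2* was its largest change (log2 fold change 4.38 ± 0.20), in contrast to *Arg1*. The level of *Arg2* was 3.11 ± 0.697 UMIs per 10000 in neutrophils and 0.294 ± 0.0645 in monocytes (SD, n = 4). As for *Hmox1* above, the fold change of *Arg2* is larger than the ratio of these levels.

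In Mmp12 Gpnmb macrophages 9 of 11 itaconate and NRF2 genes were higher and 1 lower (median 0.88), beside 13.5% and 17.1% of all genes, led by *Gclm*, the modifier subunit of glutamate-cysteine ligase (2.40 ± 0.26), and *Srxn1* (2.14 ± 0.26). As given above, *S100a8* and *S100a9* reached a mean of 10.4% of the neutrophil level in this gate, against 2.87% in monocytes, and this list was also higher in neutrophils. Without the cells of neutrophil-led clusters 7 of the 11 were higher and 2 lower (median 0.70), with *Gclm* at 2.60 and *Srxn1* at 2.29, beside 11.3% and 16.6% of all genes. Of the heme and iron genes 8 of 11 were higher and 2 lower (median 0.86), with *Slc40a1* (3.18 ± 0.35) and the transferrin receptor *Tfrc* (2.65 ± 0.22) first. Among 12 arginine and polyamine genes 5 were higher and none lower, led by *Sms*, spermine synthase (1.45 ± 0.20), and *Arg2* (1.34 ± 0.24). *Arg2* was at 0.797 ± 0.287 UMIs per 10000 there, and the neutrophil ratio to *S100a8* and *S100a9* would bring 0.322. Without the cells of neutrophil-led clusters *Arg2* was at 0.92 (adjusted p = 0.0234) and *Sms* at 1.66, with 5 of the 12 genes higher and 1 lower. The heme and iron counts did not change in that alternative. In C1q macrophages 8 of 11 heme and iron genes were higher and none lower (median 0.89; 8 and 1 in the same alternative), beside 15.1% and 18.3% of all genes, and 1 of 11 itaconate and NRF2 genes was higher. Of 9 prostaglandin genes tested, 2 were higher and 1 lower in C1q macrophages, 1 and 2 in Mmp12 Gpnmb macrophages and 2 and 5 in neutrophils. *Hpgds*, which makes prostaglandin D, was higher in all 3 (3.90 ± 0.26, 3.22 ± 0.34 and 1.84 ± 0.35), and *Abcc4* was lower in both macrophage gates (−1.50 and −2.11). Without the cells of neutrophil-led clusters the prostaglandin counts were 3 higher and 1 lower in C1q macrophages, and 2 and 1 in Mmp12 Gpnmb macrophages.

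Of the tryptophan list, 5 of 8 tested genes were higher and 1 lower in each of the *Cd209a* (median 1.07) and mature (0.53) dendritic gates, beside 0.02 and 0.03 over all genes. Of all genes 20% and 31.8% were higher there, and 20.7% and 29.7% lower. *Kynu* led in both (3.07 ± 0.28 and 2.56 ± 0.28), followed in *Cd209a* cells by the amino acid transporter *Slc7a5* (2.49 ± 0.15). The list also held *Tiparp*, a target of the aryl hydrocarbon receptor, which was lower in mature dendritic cells (−1.87 ± 0.18) and higher in neutrophils (3.34 ± 0.16). Of 11 heme and iron genes, 8 were lower and 1 higher in *Cd209a* cells (*Tfrc*, 1.82), and 6 were lower and 1 higher in mature dendritic cells. *Spr*, of the nitric oxide cofactor list, was higher in mature dendritic cells (2.41 ± 0.14).

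Whether the enzymes differed between genotypes was tested with 2 tumors each, in all kept cells and in each of the 6 myeloid gates. Over all kept cells the share of C1q macrophages was 10.7% and 6.24% of cells in *Csf1r* fl/fl tumors, against 3.19% and 2.87% in *Lyve1*Cre tumors, and that of Mmp12 Gpnmb macrophages 1.80%, 1.62%, 1.45% and 1.43%. The study's methods also describe removing, from every sample, the cells of 4 clusters found mainly in the run 2 *Lyve1*Cre tumor, which bears on these shares and on sums over all cells. In sums over all cells, fewer cells of a type and less RNA per cell cannot be told apart. Over all kept cells 0 of 9 members were called by edgeR (0% of 14731 genes), and 2 had an unadjusted p under 0.05, beside 3.33% of genes. DESeq2 called 1, *Arg1*, beside 0.190% of genes. For the alternatives named below other than DESeq2 and the run as a block, the share of all genes called was not counted.

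*Arg1* over all kept cells was 0.158 and 0.224 UMIs per 10000 in *Csf1r* fl/fl tumors, against 0.0498 and 0.0578 in *Lyve1*Cre tumors. Neither *Lyve1*Cre tumor reached a *Csf1r* fl/fl tumor, and within the runs the *Csf1r* fl/fl level was 3.17 and 3.87 times the *Lyve1*Cre level. The log2 fold change was −1.86 ± 0.20, with an adjusted p of 0.232 in edgeR, 0.123 with the run as a block and 1.32e-07 in DESeq2. It passed the threshold in edgeR without the run 1 *Lyve1*Cre tumor (−1.89, adjusted p = 9.50e-06) and without that of run 2 (−1.82, adjusted p = 4.66e-05), where the remaining *Lyve1*Cre tumor was taken to vary like the others. *Hmox1* was 2.44, 1.97, 1.39 and 1.16, also without overlap, with a log2 fold change of −0.83 ± 0.28 (adjusted p = 1.0 in edgeR) and *Csf1r* fl/fl levels 1.76 and 1.70 times those of *Lyve1*Cre within runs. *Ptges* did not overlap either, in the other direction, at 0.0936 and 0.0715 in *Csf1r* fl/fl tumors, against 0.141 and 0.102 in *Lyve1*Cre tumors (0.53 ± 0.30, adjusted p = 1.0 in edgeR and 0.588 with the block), and it was at −0.26 without the Scrublet cells. The genotypes overlapped for the other 6 members. With 2 tumors per genotype, an exact permutation test of levels without overlap gives p = 0.333, so a lack of overlap is a description only. The share of all genes without overlap was not counted. C1q macrophages and *Csf1r* UMIs moved with genotype in these sums, as given above; their part in both results was not tested.

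Within the Mmp12 Gpnmb macrophages, 0 of 5 tested members were called (0% of 6140 genes), 3 had an unadjusted p under 0.05 (4.30% of genes), and DESeq2 called 0. *Arg1*, with the values given above, had a log2 fold change of −1.50 ± 0.36 (adjusted p = 0.243), and the *Csf1r* fl/fl tumors were 2.04 and 4.27 times the *Lyve1*Cre tumors within runs. With the run as a block it was called (−1.47, adjusted p = 0.00257), as 1 member beside 0.407% of genes, and likewise without the run 1 *Csf1r* fl/fl tumor (−1.81, adjusted p = 0.0253). A stricter gate gave −0.83 (adjusted p = 0.998), and leaving out the cell with most *Arg1* UMIs, 98 of the 214 in the run 2 *Csf1r* fl/fl tumor, gave −1.05 (adjusted p = 0.622), with no overlap. *Nos2* went the other way, at 1.20 ± 0.35 (adjusted p = 0.470, and 0.102 with the block), with *Lyve1*Cre to *Csf1r* fl/fl ratios of 2.09 and 2.37 in the runs. *Nos2* rested on 116 UMIs in 67 cells of the gate. Of its 3 cells with 5 or more UMIs, 2 were from the run 2 *Lyve1*Cre tumor, and leaving them out was not tested. The third member under an unadjusted p of 0.05 was *Acod1* (0.80 ± 0.35), which was at 0.16 without the run 1 *Lyve1*Cre tumor and at 0.43 without the cells of neutrophil-led clusters. *Hmox1*, which did not pass, was at −0.38 ± 0.33. Taking out the cells of neutrophil-led clusters left 104 and 96 of the gate's 157 and 126 cells in *Csf1r* fl/fl tumors. It left 55 and 40 of 104 and 68 in *Lyve1*Cre tumors, a smaller share in both. Without those cells *Arg1* was 1.94, 3.30, 1.1 and 0.813 UMIs per 10000 and *Nos2* 0.209, 0.277, 0.774 and 0.672, with no overlap between genotypes for either. The log2 fold changes were then −1.43 for *Arg1* and 1.59 for *Nos2*, and neither was called.

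**Figure D5:**
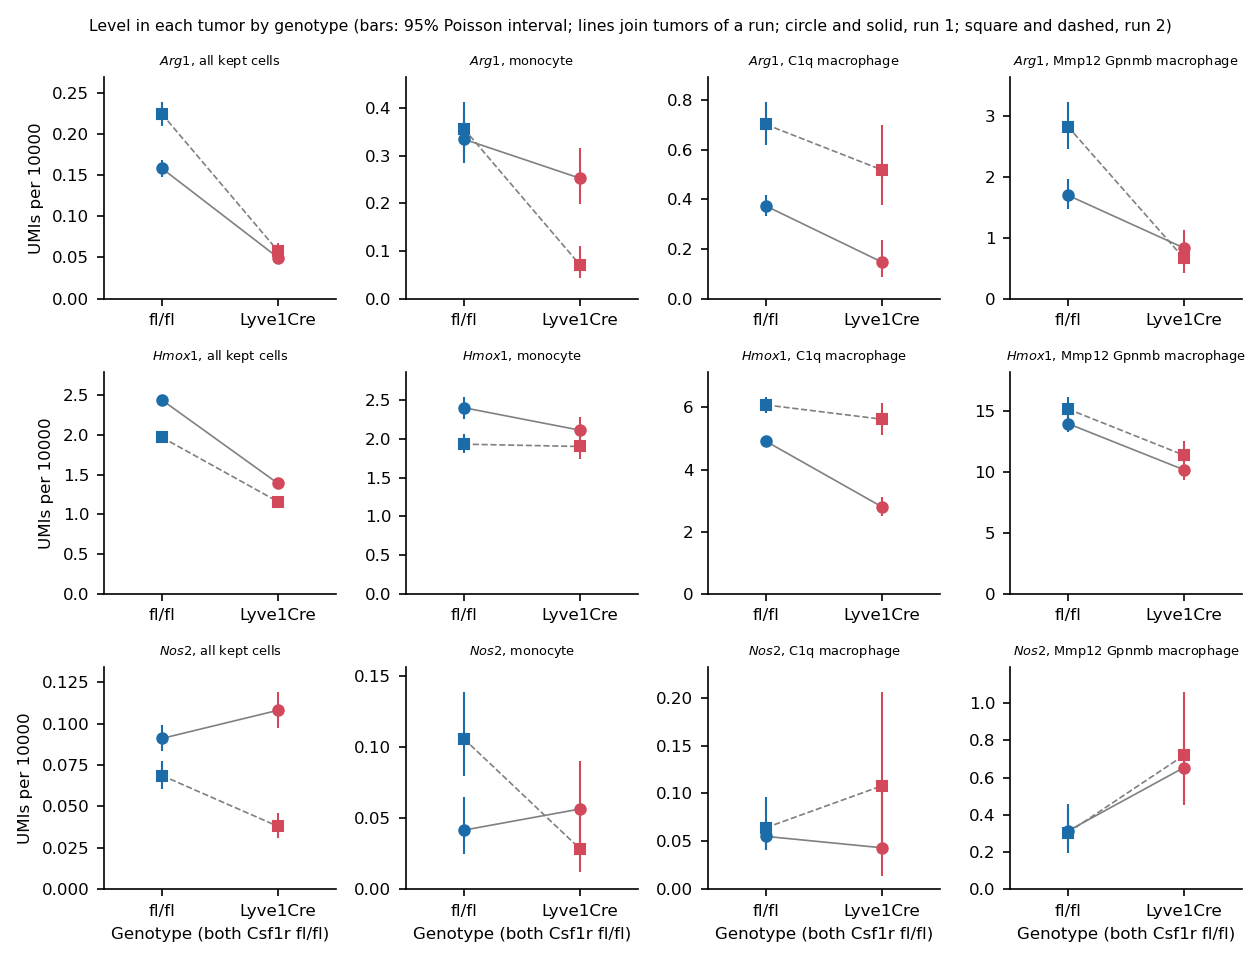
Level of Arg1, Hmox1 and Nos2 by genotype in 4 sets of cells, in UMIs per 10000 from 0; each point is a tumor with its 95% Poisson interval (counting error only), circles with solid lines are run 1, and squares with dashed lines run 2. Arg1 is lower in the Lyve1Cre tumor of each run in all 4 sets, and Nos2 is higher in the Lyve1Cre tumor of both runs in Mmp12 Gpnmb macrophages; edgeR without the block called none of these.

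In monocytes 0 of 7 tested members were called (0.0102% of genes), 1 had an unadjusted p under 0.05 (1.54% of genes) and DESeq2 called 0. That member was *Arg1* (−1.08 ± 0.42, adjusted p = 1.0), whose *Csf1r* fl/fl tumors were 1.33 and 5.04 times the *Lyve1*Cre tumors within runs. It was called with the run as a block (−1.17, adjusted p = 1.22e-05), beside 0.573% of genes, without the run 2 *Csf1r* fl/fl tumor (−1.11) and without the run 1 *Lyve1*Cre tumor (−2.39), but not without the run 1 *Csf1r* fl/fl tumor (−1.04, adjusted p = 0.0608), and without the run 2 *Lyve1*Cre tumor it was at −0.38 (adjusted p = 1.0). A single monocyte held 69 of the 153 *Arg1* UMIs of the run 1 *Csf1r* fl/fl tumor, and without it that tumor fell to 0.185 per 10000, below the run 1 *Lyve1*Cre tumor at 0.253 (−0.71). In C1q macrophages 0 of 7 were called (0.0105% of genes), none had an unadjusted p under 0.05 and DESeq2 called 0. *Arg1* there was at −0.71 ± 0.43, with overlapping genotypes. It was at −0.05 without the run 1 *Lyve1*Cre tumor, −1.71 without that of run 2 and −3.17 without the Scrublet cells, and none of these was called.

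In neutrophils 0 of 6 tested members were called (0% of 8667 genes), 0 had an unadjusted p under 0.05 and DESeq2 called 0, the log2 fold changes being 0.02 ± 0.51 for *Acod1*, 0.23 ± 0.50 for *Ptgs2* and −0.14 ± 0.58 for *Nos2*. The *Lyve1*Cre to *Csf1r* fl/fl ratio of *Acod1* was 1.50 in run 1 and 0.762 in run 2. In *Cd209a* dendritic cells 0 of 5 were called (0% of 8017 genes), 1 had an unadjusted p under 0.05 (1.50% of genes) and DESeq2 called 0. *Hmox1* was that member, at 0.568 and 0.620 UMIs per 10000 in *Csf1r* fl/fl tumors, against 0.236 and 0.118 in *Lyve1*Cre tumors, with no overlap (−1.65 ± 0.35, adjusted p = 0.402) and within-run ratios of 2.41 and 5.24. *Hmox1* was called there without either *Csf1r* fl/fl tumor (−1.65 and −1.66), without the run 1 *Lyve1*Cre tumor (−2.41), in a stricter gate (−1.90) and without the cells of neutrophil-led clusters (−2.72), but not without the run 2 *Lyve1*Cre tumor (−1.21, adjusted p = 0.871). It rested on 250 UMIs, and 1 cell held 95 of the 138 in the run 2 *Csf1r* fl/fl tumor. Without that cell the tumor fell to 0.194, below the run 1 *Lyve1*Cre tumor, so that the genotypes overlapped (−0.96, adjusted p = 1.0); leaving out top cells was chosen after seeing the data. The *Hmox1* level of *Cd209a* cells (mean 0.385) was that of T cells (0.380) and NK cells (0.387). T cells too had more *Hmox1* in both *Csf1r* fl/fl tumors (0.746 and 0.378) than in *Lyve1*Cre tumors (0.217 and 0.180), and NK cells, plasmacytoid, type 1 and mature dendritic cells and ungated cells likewise did not overlap. How far these levels reflect RNA of other cells was not tested. In C1q macrophages, neutrophils and monocytes, which held 23.5%, 12.9% and 10.8% of all *Hmox1* UMIs, the *Hmox1* levels of the genotypes overlapped. They also overlapped in B cells and in stromal or tumor cells. In neutrophils of run 2 the *Lyve1*Cre level was 1.70 times the *Csf1r* fl/fl level. Without the run 1 *Lyve1*Cre tumor, *Acod1* was called in *Cd209a* cells as well (−2.53). *Kmo*, highest there of the 6 myeloid gates, was at 0.20 ± 0.28. In mature dendritic cells 0 of 6 were called (0% of 8948 genes), with *Hmox1* (−0.92 ± 0.33) alone under an unadjusted p of 0.05 (1.36% of genes) and 0 called by DESeq2. Without the cell holding 60 of its 85 UMIs in the run 2 *Csf1r* fl/fl tumor it was at −0.51, and the genotypes overlapped. *Il4i1* (−0.14 ± 0.24) and *Ido1* (−0.15 ± 0.56), both highest in that gate, did not pass.

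The pathway lists gave no call between genotypes in any of these sets, with 69 of the 76 genes tested over all kept cells and 44 to 54 in the gates. Over all kept cells the heme and iron list had the median furthest from 0, at −0.36 beside 0.00 over all genes. Whether a genotype difference was itself different from that of monocytes was tested in the joint fit. For each of the 5 gates 0 of 8 members were called (0% of 11005 genes). With an unadjusted p under 0.05 there was 1 member in neutrophils (4.14% of genes), 1 in C1q macrophages (5.23%), 2 in Mmp12 Gpnmb macrophages (6.30%), 2 in *Cd209a* dendritic cells (2.63%) and 0 in mature dendritic cells (2.62%). The 2 in Mmp12 Gpnmb macrophages were *Nos2* (2.08 ± 0.77, adjusted p = 0.701) and *Kmo* (1.86 ± 0.71, adjusted p = 0.701). Over the 4 tumors *Nos2* had 116 UMIs in that gate and *Kmo* 22. With 2 tumors per genotype, an exact two-sided permutation test of a single level cannot go below p = 0.333.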

How the data were processed

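Single-cell RNA libraries (Chromium 3′ v2 per the labels) of 2 runs were analysed. The authors processed reads with Cell Ranger 6.0.1 on mm10. The deposited raw table holds UMI counts per gene and barcode, and hashtag counts came with it. The deposited corrected table (18449 genes) holds depth-corrected values, treated as a score, and gave only the names of the 28429 cells the authors kept after removing doublets and cells rich in mitochondrial reads. Their methods also describe removing all cells of 4 clusters found mainly in the second Lyve1Cre tumor. A cell's tumor was its higher hashtag after a centered log ratio; raw hashtag counts gave another tumor for 86 cells.

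The members, gene lists and tests were chosen with earlier results of these data known. Cells were gated on mean standardized log marker levels (score above 0.5, lead above 0.25, at least 2 markers; a stricter lead was 1.0), and 1368 cells lay within 0.1 of the lead limit. Scrublet marked 21.3% of run 1 and 12.8% of run 2, and these cells were kept. Clusters used 2000 variable genes without the members, 30 principal components, 20 neighbors and Leiden resolution 0.8. UMIs were summed per tumor and gate and tested with edgeR 4.0.16 (filterByExpr, TMM, quasi-likelihood, adjusted p under 0.05) in R 4.3.3; DESeq2 1.42.0 was an alternative. Gate comparisons used 24 sums with the tumor as a block and left out gate markers. The edgeR test reports no standard error. The SE printed with its log2 fold changes is the size of the change divided by the square root of the F statistic. It does not replace the adjusted p. Other steps used scanpy 1.11.5, numpy 2.4.6 and scipy 1.17.1 in Python 3.11.15. Intervals are exact Poisson at 95% and cover counting error only, as do upper limits at 3 counts.

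The genes named besides the members were the 3 with the highest correlation to each member and, per list, the 2 largest called changes in each gate. Named outside that rule were the gate markers, among them S100a8 and S100a9, Bnip3 in the neutrophil clusters, Csf1r and Lyve1. Genotype changes over all kept cells were given for Arg1, Hmox1 and Ptges, whose genotypes did not overlap, and for the other members as ranges leaving out each tumor. Each member but Ptges, too low there to test, was given in its highest of the 6 myeloid gates. Others were named after their values were seen where they passed an unadjusted p of 0.05 or an alternative called them, with Arg1 in C1q macrophages and Nos2 in neutrophils besides.

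Tumors of a number shared a run, which the labels give. The correlation of the run differences of both genotypes was 0.49 over all kept cells, 0.63 in neutrophils, 0.69 in monocytes, 0.38 in C1q macrophages, 0.15 in Mmp12 Gpnmb macrophages, 0.47 in Cd209a and 0.62 in mature dendritic cells, over 2634 to 3985 genes with mean log2 CPM above 5. Each tumor is 1 sample, with median depths of 3721 to 4657 UMIs per cell. In simulated counts, 200 genes with log2 mean CPM above 5 carried a log2 change of 2. The genotype test recovered 92.0% of them in Mmp12 Gpnmb macrophages, with 11 false calls, and 94.5% in neutrophils, with 10. Recovery of smaller changes or of genes at lower levels was not tested.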

Additional observations from a re-analysis of the deposited data

How the results depend on the processing

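The alternatives tried gave 247 genotype values for 24 single-member results, of which several over all kept cells are given only as ranges below. Of these values 205 kept their direction and their side of the threshold, 17 passed it newly (all *Arg1* or *Hmox1*) and 25 turned direction, 1 of them, *Acod1* in *Cd209a* cells, passing it. Of 315 values for 35 results against monocytes 280 kept both, 17 lost the call, 8 gained it and 10 turned. The cause of these changes was not tested. The count of members called between genotypes, 0 in the edgeR fit, became 1 over all kept cells with DESeq2 and with no filter on low counts (0 to 1 leaving out each tumor). With the run as a replicate block it became 1 in monocytes and 1 in Mmp12 Gpnmb macrophages, both *Arg1*, and the block changed no other call between genotypes; with no filter it was also 1 in both (0 to 1 leaving out each tumor). In *Cd209a* dendritic cells it became 1 with no filter, in the stricter gate and without cells of neutrophil-led clusters (0 to 2 leaving out each tumor). Where a tumor was left out, the lone tumor of its genotype was taken to vary like the others. The share of all genes called was not counted with no filter, in the stricter gate or leaving out a tumor. Between genotypes it was also not counted without cells of neutrophil-led clusters, so these member calls have no share to be set beside. Members called against monocytes went from 2 to 4 in C1q macrophages with no filter (1 to 2 leaving out each tumor) and ranged from 4 to 7 in mature dendritic cells. In clusters made without the members, 5 of 9 members had the same highest type, and no cluster was led by the Mmp12 Gpnmb gate. *Arg1* (0.988) and *Hmox1* (9.07) were highest in cluster 2, led by C1q macrophages, with 9.23% of its cells in the Mmp12 Gpnmb gate. *Nos2* was highest in the neutrophil-led cluster 12 (0.678). *Kmo* was highest in cluster 10, led by *Cd209a* dendritic cells (2.89), beside 2.78 in cluster 14, led by plasmacytoid dendritic cells.

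Directions turned for *Ptges* over all kept cells without Scrublet cells (−0.26), for *Acod1* between genotypes in neutrophils with no filter (−0.01), without Scrublet cells (−0.08) and in the stricter gate (−0.03), for *Acod1* in *Cd209a* cells with the run as a replicate block (−0.15), without Scrublet cells (−0.52) and without cells of neutrophil-led clusters (−1.17), and, against monocytes, for *Nos2* in C1q macrophages with DESeq2 (0.06) and the stricter gate (0.73), *Kmo* there without Scrublet cells (0.04) and in the stricter gate (0.13), *Il4i1* in Mmp12 Gpnmb macrophages without Scrublet cells (−0.11), and *Acod1* without cells of neutrophil-led clusters in Mmp12 Gpnmb macrophages (−0.03) and mature dendritic cells (0.09). Leaving out each tumor, genotype changes over all kept cells ranged from −1.27 to 0.52 for *Nos2*, −0.75 to 0.42 for *Acod1*, −0.20 to 0.42 for *Ido1*, −0.42 to 0.42 for *Kmo*, −0.58 to 0.58 for *Ptgs2* and, without a turn in direction, 0.06 to 0.65 for *Il4i1*. They ranged in neutrophils from −0.53 to 0.90 for *Acod1*, −0.33 to 1.11 for *Ptgs2* and −1.59 to 0.83 for *Nos2*, in *Cd209a* cells from −0.08 to 0.56 for *Kmo* and −2.53 to 1.14 for *Acod1*, and in mature dendritic cells from −0.42 to 0.12 for *Ido1*. Against monocytes, C1q macrophages ranged from −0.46 to 0.33 for *Nos2*, −0.26 to 0.06 for *Acod1* and −0.17 to 0.08 for *Kmo*. *Arg1* and *Ido1* rest on few UMIs and cells, as does *Nos2* in Mmp12 Gpnmb macrophages, which limits their precision.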
